A study of Homo sapiens with 2 samples.

Results

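Genes of vesicle coats, RAB and ARF GTPases and SNAREs serve membrane traffic between the endoplasmic reticulum, the Golgi, endosomes and the cell surface. Their RNA-seq counts were compared between HepG2 cells labelled as SCRN1 knockout and HepG2 cells labelled as vector. Members were chosen by symbol prefix alone, with no measured value in the rule. They were the protein-coding genes whose symbols begin with Rab, Arf or Snap and a digit, with Arl, Sec, Vamp, Stx, Syt, Exoc, Vps, Ap1, Ap2, Ap3, Clt, Snx, Tmed or Flot, or with Cop and 1 of the letters a, b, e, g or z. The rule took 88 of the 3764 genes in the count table, of which 2992 are protein-coding. HepG2 is a human hepatocellular carcinoma line. The groups were 1 library of HepG2 cells in which CRISPR-Cas9 had been used to knock out SCRN1, the gene of secernin 1, and 1 library of HepG2 cells labelled as vector and wild type, neither of them treated and both kept in DMEM with serum. The labels do not say whether the knockout cells were 1 clone or a pool. With 1 library per group no difference had a replicate check, and the 95% exact intervals given below reflect counting error alone.

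Coats bend membrane into vesicles and choose cargo: COPII on the way out of the endoplasmic reticulum, COPI on retrograde and intra-Golgi routes, and clathrin with its adaptors at the plasma membrane, endosomes and trans-Golgi network. RAB and ARF GTPases switch between GDP-bound and GTP-bound forms and recruit coats, tethers and motors to their own membranes. SNAREs then pair across the vesicle and its target and drive fusion. Hepatocytes depend on this system to secrete plasma proteins, and secernin 1 was first described as a cytosolic protein that regulates exocytosis in mast cells.

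Counts on the listed genes were low in both libraries. The total count was 163644 in the knockout and 178421 in the vector library, and 3 counts, taken as the most that a count of 0 allows, came to 18.3 CPM in the knockout and 16.8 CPM in the vector library. The labels give human cells and the processing notes of the submitters the human build GRCh38, yet every listed gene has a mouse Ensembl identifier. The sources used here do not say how the reads came to be counted on mouse genes. A low count below was therefore not checked as a low transcript level. Scrn1 was not listed, so the knockout label could not be checked against its target. None of 10 hepatocyte and HepG2 markers (among them Alb, Afp and Hnf4a) was listed, so the labelled cell type could not be checked either. Of 4 leukocyte and macrophage markers 1 was listed (Lyz2, 3 counts in the knockout and 21 in the vector library), of 4 fibroblast markers 1 (Col1a1, 4 and 6 counts in the knockout and vector libraries), of 4 epithelial markers 1 (Krt8, 2 counts in the knockout and 0 in the vector library) and of 3 endothelial markers none. The part of other cells in the results below was not tested, and in bulk RNA fewer cells of a type and less RNA per cell cannot be told apart.

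The 88 genes held 3381 counts in the knockout library (2.07% of its total) and 3574 in the vector library (2.003%). Their pooled ratio of knockout to vector, after scaling the libraries by trimmed mean of M-values (TMM) factors, was 1.05 (0.999 to 1.10). It was 0.946 (0.902 to 0.992) with median-of-ratios scaling, which gave both libraries the same effective total and so left the counts unscaled. With library totals the pooled ratio was 1.031 (0.984 to 1.081), and with upper quartile scaling 1.055 (1.006 to 1.106). Without the most counted gene it was 1.058 (1.003 to 1.116) after TMM scaling. Whether and on which side the interval excluded 1 thus depended on these choices. Genes were compared from 20 counts upwards, summed over both libraries, and 45 of the 88 reached that limit. A call needed a ratio of 2 or above, or of 0.5 or below, with an interval that excluded 1. By that rule 3 of the 45 (6.67%) were called higher and 2 (4.44%) lower in the knockout library, against 3.34% and 3.90% of all 1588 compared genes. Size alone gave the same 3 and 2 genes, against 4.09% and 5.04% of all compared genes, or 9.13% in both directions. Whatever the fold, the interval excluded 1 for 7 genes higher (15.6%) and 2 lower (4.44%), against 8.69% and 7.81% of all compared genes. Besides the called genes these 9 held Rab2a, Arl8b, Sec22b and Rab6a. With median-of-ratios scaling 4 were above 1, with Arl8b, Sec22b and Rab6a no longer among them, and Flot2 and Vps54 were again the 2 below 1. The pooled ratio of the ARF and ARL genes was then 1.08, with an interval of 0.917 to 1.26 that held equality. Whether any of these shares differs from the background was not tested. The other 40 were not called, and 33 of the 45 (73.3%) lay within 1.5-fold, against 75.8% of all compared genes. The median log2 ratio of the 45 was 0.11, against 0.03 for all compared genes. Median-of-ratios scaling moved all log2 ratios by -0.15, and with it those medians were -0.04 and -0.12.

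**Figure D1:**
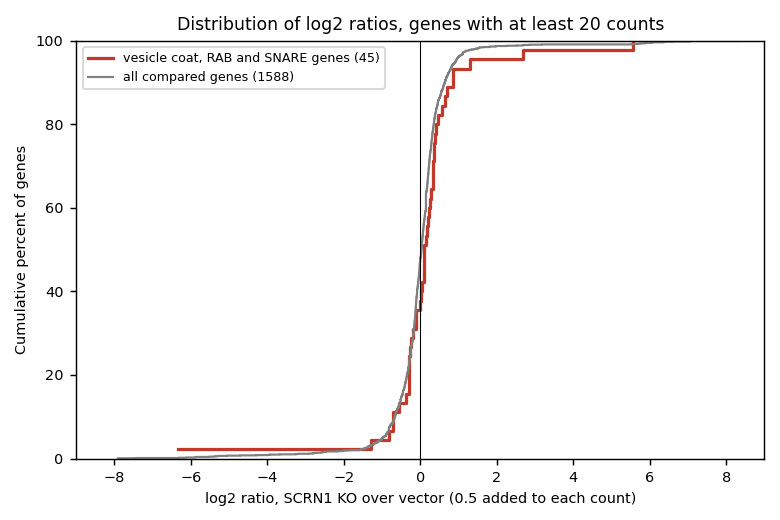
Cumulative percent of genes against the log2 ratio of knockout to vector counts, with 0.5 added to each count, for the 45 compared genes of the set and for all 1588 compared genes. The curves run close together through the middle, with medians of 0.11 and 0.03, and the set has single genes far out on both sides, at -6.33 and 5.57.

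The clearest differences fell on a COPI subunit, a sorting nexin and a flotillin. Copb2, the beta-prime subunit of the COPI coat that binds dilysine retrieval signals, had 61 counts in the knockout and 10 in the vector library. It was 6.75-fold higher in the knockout library (3.43 to 14.8). Snx5, a sorting nexin that works with the retromer in carrying cargo from endosomes to the Golgi, had 21 counts in the knockout and 0 in the vector library. Against a floor of 3 counts it was higher by at least 7.75-fold in the knockout library. Flot2, which encodes flotillin 2, a scaffold of membrane microdomains, went the other way, with 0 counts in the knockout and 44 in the vector library, and was lower by at least 13.2-fold in the knockout library. These were the 3 calls that also passed a 3-fold limit and a 99% interval.

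The other 2 called genes lay closer to 2-fold. Rab11fip2, an effector that links RAB11 on recycling endosomes to myosin V, had 23 counts in the knockout and 10 in the vector library and was 2.55-fold higher (1.17 to 5.99). Vps54, a subunit of the GARP complex that tethers endosome-derived vesicles at the trans-Golgi network, had 10 counts in the knockout and 28 in the vector library and was 2.53-fold lower (1.19 to 5.84). Both lost the call at a 99% interval or a 3-fold limit. The files give mouse positions without naming the build. On them Copb2 lies on chromosome 9 from 98563721 to 98588382, Snx5 on chromosome 2 from 144250123 to 144270906 and Flot2 on chromosome 11 from 78037931 to 78060434. Rab11fip2 lies on chromosome 19 from 59902884 to 59943654 and Vps54 on chromosome 11 from 21239281 to 21321136. No other listed gene overlapped any of the 5.

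**Figure D2:**
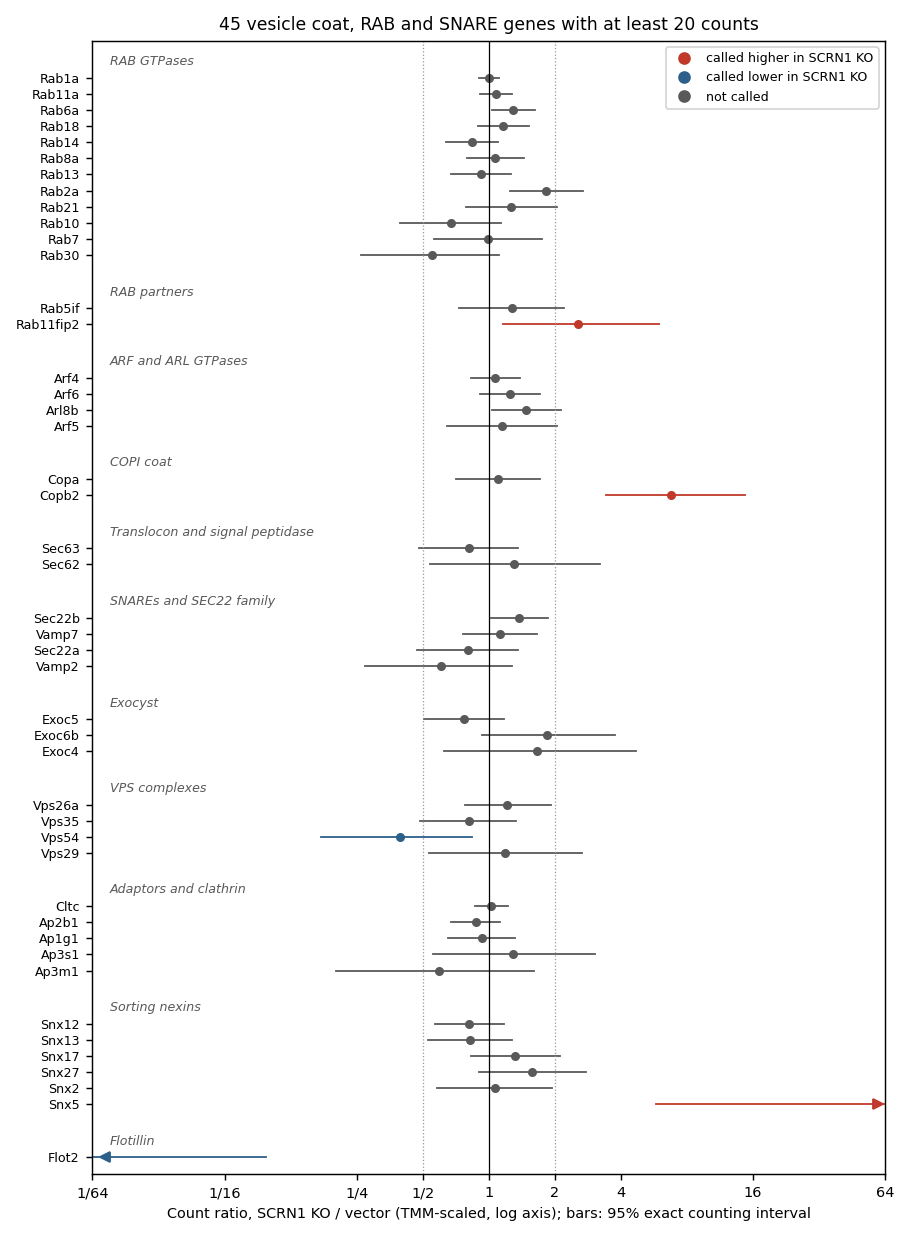
Ratio of knockout to vector counts on a log axis for the 45 genes with at least 20 counts, grouped by role, with 95% exact counting intervals; arrows mark a count of 0 in 1 library. Copb2, Rab11fip2 and Snx5 lie to the right of the 2-fold line, Vps54 and Flot2 to the left of the opposite line, and most of the others cross equality.

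RAB GTPases, which give each compartment its identity, made up 18 of the 88 genes and 12 of the 45 compared. None of the 12 was called, against 7.24% of all compared genes. Their ratios ran from 0.553 to 1.83, with 10 within 1.5-fold, against 75.8% of all compared genes. The difference from those shares was not tested. Rab1a, which serves transport from the endoplasmic reticulum to the Golgi, was the most counted gene of the set and ranked 29 among all protein-coding genes. It had 692 counts in the knockout and 761 in the vector library, a ratio of 1.01 (0.907 to 1.12), and alone held 20.5% and 21.3% of the set's counts in the knockout and vector libraries. Rab11a, the RAB of recycling endosomes and the partner of Rab11fip2, had 284 counts in the knockout and 292 in the vector library, a ratio of 1.08 (0.911 to 1.27). Both intervals lay within 1.5-fold of equality.

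Rab2a and Rab6a had the highest ratios among the 12 compared RABs. Rab2a, which acts between the endoplasmic reticulum and the Golgi and binds tethers there, had 76 counts in the knockout and 46 in the vector library. Its ratio of 1.83 (1.25 to 2.70) excluded equality without reaching 2-fold. Rab6a, which serves transport within and from the Golgi, had 174 counts in the knockout and 149 in the vector library, a ratio of 1.29 (1.03 to 1.62). At the lower end, Rab30, a Golgi RAB, had 13 counts in the knockout and 26 in the vector library (0.553, 0.261 to 1.12), and Rab10, a RAB of exocytic and endosomal traffic, had 25 and 41 counts in the knockout and vector libraries (0.675, 0.393 to 1.14). Neither was distinguishable from equality at these counts.

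The remaining compared RABs had intervals that held equality. Rab18, found on lipid droplets and the endoplasmic reticulum, had 119 counts in the knockout and 113 in the vector library (1.17, 0.893 to 1.52). Rab14, of the Golgi and endosomes, had 95 and 125 counts in the knockout and vector libraries (0.841, 0.637 to 1.11). Rab8a, which drives carriers to the plasma membrane, had 90 counts in the knockout and 93 in the vector library (1.07, 0.793 to 1.45), and Rab13, a RAB of tight-junction traffic, had 76 and 91 counts in the knockout and vector libraries (0.924, 0.673 to 1.27). Rab21, an early endosomal RAB, and Rab7, the late endosomal RAB, had ratios of 1.27 (0.783 to 2.05) and 0.992 (0.561 to 1.75). The 6 RABs under 20 counts lay on both sides. Rab12 had 11 counts in the knockout and 5 in the vector library, Rab22a had 8 and 0, Rab34 2 and 0, Rab35 2 and 3, Rab5c 1 and 4, and Rab28 0 and 5 counts in the knockout and vector libraries. Pooled over all 18 RABs, 1734 counts in the knockout library stood against 1818 in the vector library, a ratio of 1.06 (0.988 to 1.13) that became 0.954 (0.893 to 1.02) with median-of-ratios scaling. Rab5if, a gene named for an interaction with RAB5, had 31 counts in the knockout and 27 in the vector library (1.27, 0.734 to 2.21), so that of the RAB partners Rab11fip2 alone was called.

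ARF and ARL GTPases recruit coats and motors and were slightly higher when pooled, with no gene called, against 7.24% of all compared genes. Their 8 genes held 325 counts in the knockout and 302 in the vector library, a ratio of 1.19 (1.02 to 1.40). All 4 compared genes had ratios above 1 (with median-of-ratios scaling Arf4 was below it, at 0.969). Arl8b, which couples lysosomes to kinesin, had 75 counts in the knockout and 56 in the vector library and a ratio of 1.48 (1.04 to 2.13). Arf6, the ARF of the plasma membrane and endosomal recycling, had 88 and 78 counts in the knockout and vector libraries (1.25, 0.910 to 1.72). Arf4, a Golgi ARF, had 126 counts in the knockout and 130 in the vector library (1.07, 0.833 to 1.38), and Arf5 had 27 and 26 counts in the knockout and vector libraries (1.15, 0.646 to 2.05). Arf1, the main recruiter of COPI, was scarcely counted, with 3 counts in the knockout and 1 in the vector library. Arl8a, a close relative of Arl8b, had 5 counts in each library, Arl4c had 1 in the knockout and 3 in the vector library, and Arl11 had 0 and 3 counts in the knockout and vector libraries.

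Among the coat genes of the set, Copb2 of COPI was the called one. Of the 5 COPI genes taken by the prefixes, Copb2 was called, while Copa, the alpha subunit, had 44 counts in each library (1.11, 0.712 to 1.72). Copg2, a gamma subunit, had 13 counts in the knockout and 0 in the vector library. It was 4.80-fold higher against the floor, with an interval from 3.37-fold, but lay under the 20 counts asked for a call. It overlaps the listed gene Mest, which had 14 counts in the knockout and 27 in the vector library. Copb1 had 5 and 7 counts and Copz1 had 4 and 8 counts in the knockout and vector libraries, below the limit of comparison. Arcn1, the delta subunit of COPI, lies outside the prefixes and had 12 counts in the knockout and 10 in the vector library, with no call. Pooled, the 5 COPI genes held 127 counts in the knockout and 69 in the vector library, a ratio of 2.04 (1.51 to 2.77), and without Copb2 the ratio was 1.24 (0.858 to 1.79). The pooled difference of the coat therefore rested on Copb2. COPII genes were nearly absent from the counts: Sec31a, of the outer cage, had 5 counts in each library, Sec24c, which binds cargo, had 1 in the knockout and 3 in the vector library, and Sec23ip had 0 in the knockout and 2 in the vector library.

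**Figure D3:**
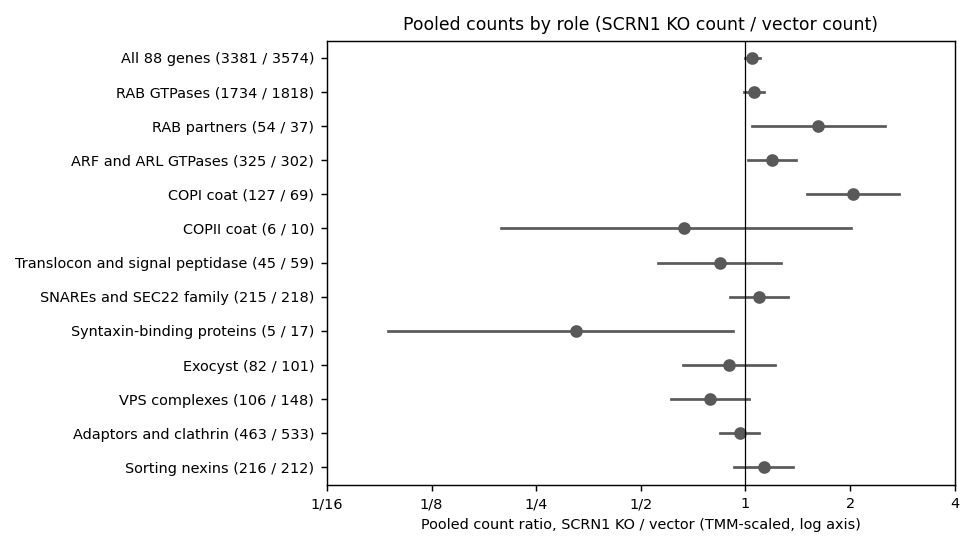
Pooled count ratio of knockout to vector on a log axis for all 88 genes and for each role with counts in both libraries, with 95% exact counting intervals and the counts of the knockout and vector libraries in the labels. COPI lies highest of the roles, at 2.04, and syntaxin-binding proteins lowest, at 0.325, while RAB GTPases, SNAREs, adaptors and sorting nexins lie close to equality.

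Of the 9 clathrin and adaptor genes of the set 5 were compared and none was called, against 7.24% of all compared genes. Clint1, a clathrin-binding relative of the epsins that lies outside the prefixes, had 1 count in the knockout and 26 in the vector library and was called lower. Cltc, the clathrin heavy chain, had 263 counts in the knockout and 283 in the vector library, a ratio of 1.03 (0.866 to 1.22). Ap2b1, the beta subunit of the plasma membrane adaptor AP-2, had 111 counts in the knockout and 141 in the vector library (0.871, 0.673 to 1.13). Ap1g1, the gamma subunit of the trans-Golgi and endosomal adaptor AP-1, had 62 and 74 counts in the knockout and vector libraries (0.927, 0.651 to 1.32). Pooled over 9 genes the ratio was 0.961 (0.847 to 1.09), and with median-of-ratios scaling it was 0.869 (0.765 to 0.986). The genes Ap3s1 and Ap3m1 of AP-3 have processed pseudogenes in the table, so their counts are uncertain. Ap3s1 had 14 counts in the knockout and 12 in the vector library, and with its 2 listed copies 50 and 43 counts in the knockout and vector libraries (1.29, 0.839 to 1.98). Ap3m1 had 7 counts in the knockout and 13 in the vector library, with its copy 23 and 32 counts in the knockout and vector libraries (0.795, 0.445 to 1.40), and it also overlaps Vcl. The other 4 genes were sparse, with 6 counts in the knockout and 10 in the vector library in all: Ap3b1 with 4 and 2, Ap1b1 with 2 and 0, Ap1s2 with 0 and 6 and Clta, the light chain, with 0 and 2 counts in the knockout and vector libraries.

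Of the 8 SNARE and SEC22 family genes 4 were compared, and none of these was called, against 7.24% of all compared genes. Sec22b, a SNARE of transport between the endoplasmic reticulum and the Golgi, had 102 counts in the knockout and 82 in the vector library, a ratio of 1.38 (1.02 to 1.86). Vamp7, a SNARE of late endosomes and lysosomes, had 56 and 55 counts in the knockout and vector libraries (1.13, 0.763 to 1.67). Vamp2, a SNARE of regulated exocytosis, had 12 counts in the knockout and 22 in the vector library (0.604, 0.272 to 1.27). Sec22a, a relative of Sec22b, had 27 and 37 counts in the knockout and vector libraries (0.808, 0.473 to 1.36). Snap25, a partner of syntaxins at the plasma membrane, had 11 counts in the knockout and 6 in the vector library. Of the syntaxins, Stx17 had 6 and 7 counts, Stx6 1 and 2, and Stx16 0 and 7 counts in the knockout and vector libraries, all under the limit of comparison. Pooled over 8 genes the ratio was 1.09 (0.900 to 1.32), and it was 0.986 with median-of-ratios scaling.

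The genes that control exocytic fusion had few counts. The exocyst, which tethers secretory vesicles to the plasma membrane, had 5 listed genes. Of these, 3 were compared and none was called, against 7.24% of all compared genes. Exoc5 had 42 counts in the knockout and 60 in the vector library (0.775, 0.509 to 1.17). Exoc6b had 25 in the knockout and 15 in the vector library (1.84, 0.935 to 3.76), and Exoc4 had 12 and 8 counts in the knockout and vector libraries (1.66, 0.624 to 4.68). Exoc1 had 3 counts in the knockout and 8 in the vector library. Exoc7, a subunit that binds membrane phosphoinositides, had 0 counts in the knockout and 10 in the vector library, under the limit of comparison. It was 3.01-fold lower in the knockout library against the floor, with an interval from 2.02-fold. The exocyst subunits thus lay on both sides of equality, and their pooled ratio was 0.898 (0.663 to 1.21). All 5 syntaxin-binding proteins, which chaperone syntaxins or hold them back from fusion, lay under 20 counts. Together they had 5 counts in the knockout and 17 in the vector library, a ratio of 0.325 (0.0939 to 0.919), with Stxbp2 (0 and 7 counts in the knockout and vector libraries) the most counted. Without Stxbp2 the pooled ratio was 0.553, with an interval of 0.148 to 1.78 that held equality. Syt7, a calcium sensor of lysosomal exocytosis and the only listed synaptotagmin, had 3 counts in the knockout and 0 in the vector library.

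Among endosomal sorting genes Snx5 and Vps54, given above, were the calls. The retromer, which retrieves cargo from endosomes, had 89 counts over 4 genes in the knockout and 100 in the vector library, a ratio of 0.985 (0.732 to 1.32). Within it, Vps26a had 44 counts in the knockout and 40 in the vector library (1.22, 0.775 to 1.92), and Vps35 had 30 and 41 counts in the knockout and vector libraries (0.810, 0.488 to 1.33). Vps29 had 15 and 14 counts in the knockout and vector libraries (1.19, 0.534 to 2.65), and Vps26b, the paralog of Vps26a, had 0 in the knockout and 5 in the vector library. The HOPS and CORVET tethers of late and early endosomes had 2 counts over 3 genes in the knockout and 15 in the vector library. Of these, Vps11, a core subunit of both, had 0 counts in the knockout and 12 in the vector library. It was 3.61-fold lower in the knockout library against the floor, with an interval from 2.51-fold. Vps41 had 1 count in the knockout and 2 in the vector library, Vps33a had 1 in each, and Vps13b, a lipid transfer protein of the Golgi, had 5 in each. Pooled over the 9 VPS genes the ratio was 0.793 (0.612 to 1.02), and without Vps54 it was 0.885 (0.670 to 1.17). With median-of-ratios scaling the ratio of the 9 was 0.716 (0.553 to 0.925), which excluded equality. Sorting nexins were all compared, and of the 6 only Snx5 was called, against 7.24% of all compared genes. Snx2, another retromer-associated nexin, had 24 counts in the knockout and 25 in the vector library (1.06, 0.581 to 1.94). Snx27, which recycles cargo with PDZ-binding tails, had 34 and 24 counts in the knockout and vector libraries (1.57, 0.903 to 2.76), and Snx12 had 56 in the knockout and 76 in the vector library (0.815, 0.567 to 1.17). Snx13 (0.825, 0.527 to 1.28) and Snx17 (1.32, 0.829 to 2.12) also held equality, and without Snx5 the pooled ratio of the sorting nexins was 1.02 (0.834 to 1.24).

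Genes of entry into the secretory pathway had low counts in both libraries. Sec63, which works with the SEC61 channel and the chaperone BiP, had 28 counts in the knockout and 38 in the vector library (0.815, 0.482 to 1.36), and Sec62 had 13 and 11 in the knockout and vector libraries (1.31, 0.541 to 3.22). The paralogous channel subunits were each counted in a single library, Sec61a1 with 2 counts in the knockout and none in the vector library, and Sec61a2 with none in the knockout and 8 in the vector library. The p24 cargo receptors Tmed3, Tmed7 and Tmed10 had 0 counts in the knockout and 2 each in the vector library. Sec11a, a catalytic subunit of signal peptidase, had 2 counts in each library. Tmed10 has a listed processed pseudogene with 2 counts in the knockout and 4 in the vector library.

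Levels can be compared between genes only per length, for which the deposited FPKM (fragment counts scaled for gene length and library size) were used. How cells labelled human were counted on mouse genes is not stated in these sources, and Actb, the gene of beta-actin, had only 7 counts in the knockout and 16 in the vector library. The order of genes below is therefore that of the deposited values and was not checked as an order of transcript levels. Rab1a stood highest, at 559 FPKM in the knockout and 564 FPKM in the vector library. Arf6 and Rab11a followed in both libraries, Arf6 at 349 FPKM in the knockout and 284 FPKM in the vector library and Rab11a at 320 and 301 FPKM in the knockout and vector libraries. Rab6a came next, at 234 FPKM in the knockout and 183 FPKM in the vector library. Cltc had nearly as many counts as Rab11a but stood at 146 FPKM in the knockout and 144 FPKM in the vector library. The same 10 genes, Rab1a, Arf6, Rab11a, Rab6a, Rab2a, Rab13, Cltc, Vamp7, Rab8a and Arf4, were the 10 highest in each library. Rab2a was the fifth in the knockout library, at 217 FPKM, and the eighth in the vector library, at 120 FPKM. The compared genes of the set had a median of 38.0 FPKM in the knockout and 35.6 FPKM in the vector library, against 26.2 FPKM in the knockout and 26.4 FPKM in the vector library over all compared genes.

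**Figure D4:**
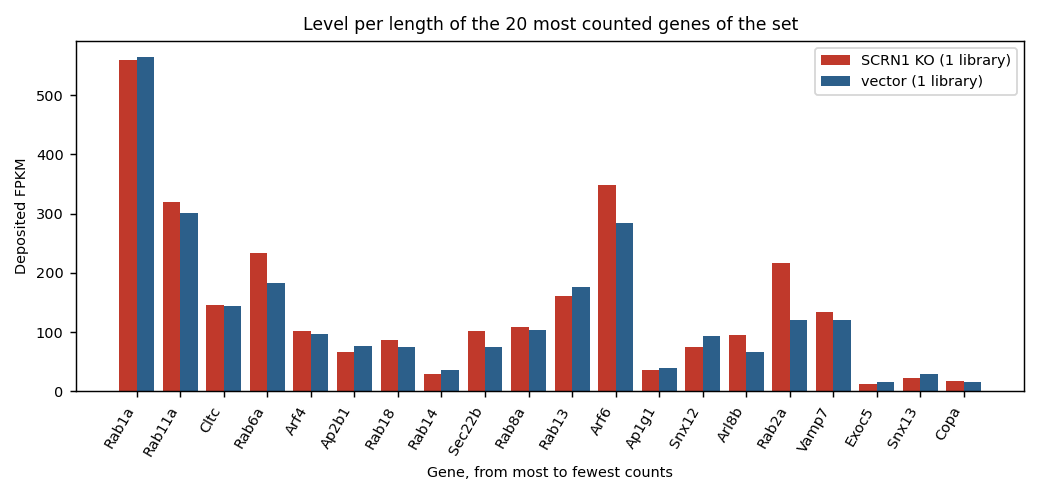
Deposited FPKM of the 20 most counted genes of the set in the knockout library (left bars) and the vector library (right bars), 1 library each and so without error bars. Rab1a stands highest in both, at 559 FPKM in the knockout and 564 FPKM in the vector library, and Rab2a shows the widest step, at 217 FPKM in the knockout and 120 FPKM in the vector library.

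The 43 genes under 20 counts were at 0 in the knockout library more often than in the vector library. Of the 43, the knockout library lacked 15 (34.9%) and the vector library lacked 6 (14.0%). Over all 2176 listed genes under 20 counts the shares were 21.5% and 9.60% for the knockout and vector libraries, and the difference from those shares was not tested. Pooled, these 43 genes had 107 counts in the knockout and 162 in the vector library, a ratio of 0.731 (0.567 to 0.939), against 0.857 (0.826 to 0.889) over all genes under 20 counts. Sparse genes of the whole table thus also had fewer counts in the knockout library after scaling. The sparse genes with the most counts in the library that had them were Copg2, Vps11 and Exoc7, already given. Over the whole set, the knockout library lacked 16 of the 88 genes (18.2%) and the vector library lacked 7 (7.95%), against 12.7% and 5.84% of all listed genes for the knockout and vector libraries.

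**Figure D5:**
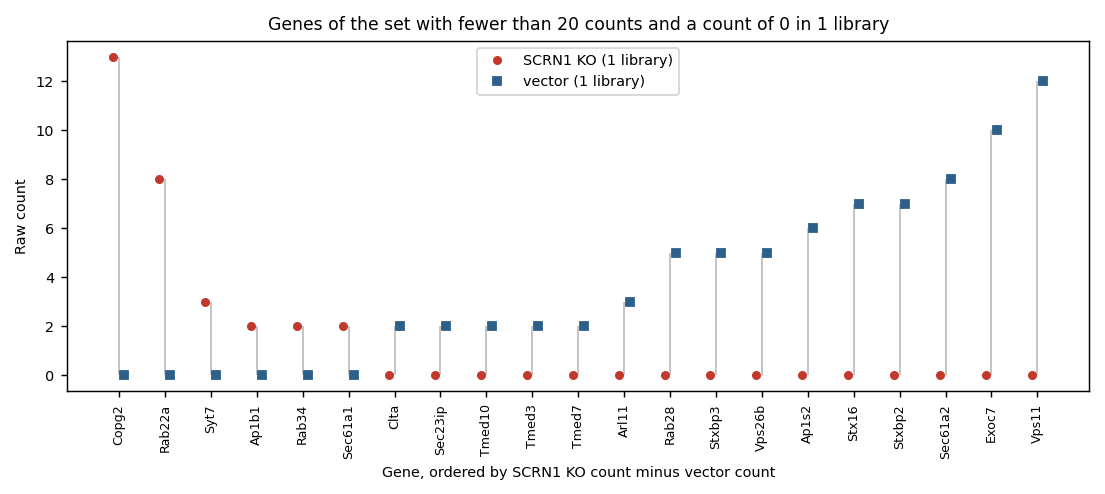
Raw counts in the knockout library (circles) and the vector library (squares) of the genes of the set with fewer than 20 counts and a count of 0 in 1 library, ordered by the difference. The knockout library is at 0 in 15 genes, on the right, and the vector library in 6, on the left.

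The deposited annotation groups the members along other lines. Of the 88, 21 carry the KEGG pathway Endocytosis, 8 Lysosome and 6 SNARE interactions in vesicular transport, while 40 carry no pathway. Over all compared genes 3.34% were called higher, 3.90% lower and 7.24% in either direction, and the small counts per term were not tested against those shares. Among 15 compared Endocytosis genes Snx5 and Rab11fip2 were called higher and none lower. Of the 39 genes annotated to the endosome, 25 were compared, with Snx5 and Rab11fip2 higher and Flot2 lower. Of the 46 annotated to the Golgi apparatus, 27 were compared, with Copb2 higher and Vps54 lower. All 14 compared genes with GTPase activity, of 22 annotated, were not called. None of the 5 called genes is a GTPase.

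Trafficking genes outside these prefixes were taken from a list of 195, of which 62 were listed and 22 compared. Arcn1 and Clint1 are not on it and were named after their values were seen. In it 1 gene was higher and 1 lower, 9.09% of those compared against 7.24% of all compared genes, and the median log2 ratio was 0.05. Trappc10, a subunit of a TRAPP complex that activates RABs at the Golgi, had 22 counts in the knockout and 11 in the vector library and was 2.21-fold higher (1.03 to 5.05). With median-of-ratios scaling its interval reached below 1 (0.930 to 4.57), which ended the call. Chmp1b, an ESCRT-III subunit, had 2 counts in the knockout and 26 in the vector library, a ratio of 0.0851 (0.00979 to 0.340). The most counted were Picalm, a clathrin assembly protein, with 346 counts in the knockout and 448 in the vector library (0.855, 0.741 to 0.986), Tfg, which organizes COPII exit sites, with 110 in the knockout and 124 in the vector library (0.982, 0.753 to 1.28), and Kif5b, a kinesin heavy chain, with 110 and 117 in the knockout and vector libraries (1.04, 0.795 to 1.36).

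The authors' deposited table gives its own comparison of the knockout with the vector library, 1 library against 1. Its p-values therefore hold no spread between samples estimated from these data. Its adjusted p was under 0.05 for 5 of the 88 genes (5.68%), against 2.68% of all listed genes. In the authors' deposited table the adjusted p was 6.16e-09 for Flot2, 1.32e-06 for Copb2 and 0.00015 for Snx5. The adjusted p of the authors' deposited table was 0.0172 for Copg2 and 0.0282 for Vps11, which lie under 20 counts, and 0.367 for Rab11fip2 and 0.397 for Vps54. The calls that both the 20-count rule and the authors' deposited table made were Flot2, Copb2 and Snx5. Both rest on the counts of the same libraries, so the shared calls are not an independent check.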

How the data were processed

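RNA-seq counts of 1 SCRN1 knockout and 1 vector library of HepG2 cells were used, grouped by the labelled genotype. Per the labels' protocols, DNase-treated total RNA was separated to mRNA to build the libraries. Tools and build named in the submitters' processing notes are bcl2fastq 2.19, HISAT2 2.0.4, StringTie 1.3.0 and GRCh38. The sources used here do not give the counting tool, the strand setting or the mouse build. The table deposited by the authors holds, per the file headers, raw counts, FPKM values, a log2 fold change (vector over knockout, not used here) and p-values with adjusted p-values.

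Libraries were scaled by TMM in edgeR 4.0.16 (R 4.3.3), and each knockout-to-vector ratio had an exact conditional binomial (Clopper-Pearson) interval at 95%. All intervals and the floor of 3 counts reflect the counting error of reads alone. Without molecular identifiers reads need not be separate molecules, so they can understate the counting error of molecules. For log2 ratios 0.5 was added to each count. With 1 library per group no test between samples was run. Alternatives covered scaling (library totals, size factors from DESeq2 1.42.0, upper quartile), count filters, folds and intervals.

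The named genes were every called gene, the 20 most counted, the most counted of each role, those at 0 in 1 library with at least 10 counts in the other, and those between 1.5-fold and 2-fold with an interval excluding 1. Of the other trafficking genes the called and the 3 most counted were named. Further genes were named after their values were seen. The members and lists were chosen with earlier results of these data known. Scripts ran in Python 3.11.15 with SciPy 1.17.1, NumPy 2.4.6, pandas 2.3.3 and matplotlib 3.10.9.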

Additional observations from a re-analysis of the deposited data

How the results depend on the processing

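The count filter moved the calls most, since few genes of the set were well counted. Against 3 genes higher and 2 lower in the knockout library, a filter of 50 counts left 1 (Copb2) and 0, a filter of 10 counts gave 4 and 4 with Copg2, Vps11 and Exoc7 added, and no filter gave 5 and 8. A 3-fold limit or a 99% interval left 2 higher (Copb2 and Snx5) and 1 lower (Flot2), and a 1.5-fold limit added Rab2a. Genes past 2-fold whatever the interval were also 3 and 2, and became 1 and 0 with 50 counts, 6 and 5 with 10 counts, and 14 and 22 with no filter. The shares over all listed genes were not taken at these other settings. The counts of genes at them therefore have no background and are not read as a trait of the set. Library totals, upper quartile and median-of-ratios scaling left the same 5 genes called. With median-of-ratios scaling the median log2 ratio of the set turned to -0.040, the pooled ratio of all 88 genes was 0.946 and that of the RAB GTPases 0.954. That setting makes no correction for depth. Without the most counted gene of its role, the pooled ratio was 2.55 for the RAB partners and 3.67 for COPI. Pooling without the called genes, chosen after seeing the data, gave 1.24 for COPI. The 105 values of single named genes of the set under other scalings left every call of the set as it was. Outside the set, Trappc10 lost its call with median-of-ratios scaling. Among uncalled named genes of the set, median-of-ratios scaling put 5 ratios on the other side of 1 (Rab1a, Rab11a, Cltc, Arf4 and Rab8a, at 0.909 to 0.973), and library totals put Rab1a at 0.991. Of the pooled ratios that held equality, that of the SNAREs was 0.986 with median-of-ratios scaling and 0.920 without its most counted gene, and that of the exocyst was 1.08 without its most counted gene. Pooled synaptotagmin counts, with 0 in the vector library, gave no ratio. No paired analysis was possible because each group has 1 library.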
